A study of Equus caballus with 16 samples.

Results

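Fetal and adult equine tenocytes that carried a non-target hairpin were compared across the whole transcriptome. The comparison used 8 of the 16 libraries of the series, 4 fetal and 4 adult, chosen as all those labelled NT. Every one of these cultures was a stable line made with the TRC2-pLKO.1-puro plasmid holding a scrambled short hairpin RNA (NT, clone SHC202), so the vector, its selection marker and passage in serum-containing medium were common to both stages. The other 8 libraries came from the same lines with a hairpin against SCX (shSCX) and served only as a reference here. Adult lines TB171012, TB180412, TB130911 and S came from horses of 2 to 10 years and were at passages 7, 5, 8 and 8. Fetal lines were named by day of gestation: 271d, 316d and 320d were at passage 7 and 319d was at passage 8. The labels give 1 NT library per line and no further replicate of a line. A difference between stages is therefore a difference between 4 lines and 4 other lines, grown in culture, and passage differed most in TB180412. The 2 stages stand in separate deposited tables, and the labels do not say whether their libraries were prepared or sequenced together. A difference in preparation cannot be told apart from one of stage.

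Tenocytes are the resident fibroblasts of tendon and lay down its aligned type I collagen matrix. Tendon cells first express Scleraxis, the transcription factor encoded by SCX, in the embryo, and matrix is deposited fastest before birth and during growth. Fetal tendon can repair without a scar, while adult equine tendon heals slowly with scar tissue, which is why cells of the 2 stages are set side by side. The series asks whether Scleraxis controls different genes at the 2 stages, and the NT libraries give the starting point for that question.

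Genes are given by their horse Ensembl identifier, because the files pair no identifier with a symbol. Collagens, growth factors, HOX genes and markers of tendon or other cell types could therefore not be looked up, the tenocyte label was not checked against its markers, and no role can be stated for a gene named below. In bulk RNA, fewer cells of a type and less RNA per cell cannot be told apart.

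Total counts ran from 21683693 to 24503246 in adult and from 19772443 to 21965636 in fetal NT libraries. The fetal mean was lower, but the difference missed the threshold (two-sided exact permutation p = 0.0571; 0.129 after Benjamini-Hochberg adjustment for 3 measures). The smallest exact p that 4 against 4 libraries can give is 0.029. Between 12261 and 12622 genes had 10 or more counts in adult libraries and between 12185 and 12366 in fetal ones (exact permutation p = 0.0857, adjusted 0.129). The share of counts in the 100 most abundant genes was 38.5% ± 2.62 in adult and 40.2% ± 1.64 in fetal libraries (SD, n = 4 each; exact permutation p = 0.286, adjusted 0.286). The part of depth in the results below was not tested beyond the scaling of each library.

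The 8 libraries did not group by stage. For 5 of them, the nearest other library was one of the other stage. The distance used was the root mean square difference of log2 CPM (counts scaled to the size of each library) over 12384 genes. The closest of all 28 pairs was adult TB130911 with fetal 271d, at 0.545, where 680 genes differed at least 2-fold. Adult TB171012 lay nearest to fetal 319d, at 0.609, and 319d lay nearest to TB171012 in turn. Adult S lay nearest to fetal 320d, at 0.683. Only TB180412, 316d and 320d had a nearest library of their own stage. The widest pair was also between stages: TB180412 and 320d stood 0.988 apart, with 3181 genes at least 2-fold different.

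**Figure D1:**
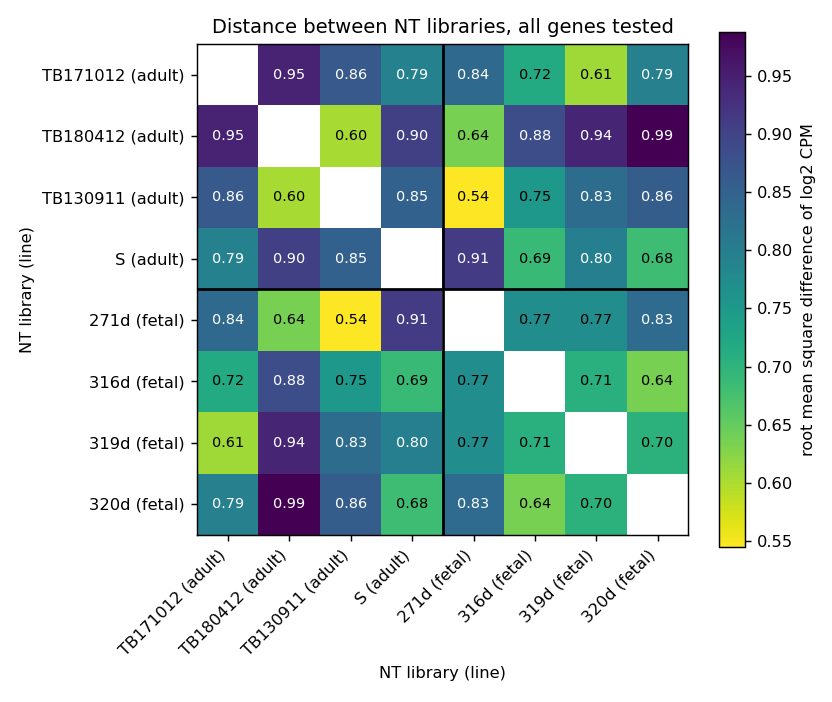
Distance between every 2 NT libraries, as the root mean square difference of log2 CPM over all genes tested, with black lines dividing adult from fetal lines. The lowest value, 0.545, joins adult TB130911 to fetal 271d, and the highest, 0.988, joins adult TB180412 to fetal 320d.

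Pairs of libraries from different stages were on average closer than pairs of adult lines and further apart than pairs of fetal lines. Mean distances were 0.827 over 6 adult pairs (range 0.603 to 0.945), 0.737 over 6 fetal pairs (0.637 to 0.834) and 0.779 over 16 mixed pairs (0.545 to 0.988). These pairs share libraries, so no test was made over them. On average 4 libraries were closer to their own stage than to the other: TB180412, 316d, 319d and 320d. TB171012 showed the opposite most clearly, with a mean distance of 0.868 to the other adult lines and 0.739 to the fetal lines. For 271d the same means were 0.792 to fetal and 0.732 to adult lines. The nearest library stayed the same for 8 of 8 libraries with a distance of 1 minus Spearman's correlation or with only the genes averaging 50 normalised counts or more, and for 7 of 8 with the 1000 most abundant genes.

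Changing the hairpin within a line moved the transcriptome less, on average, than changing the line. With libraries centred on their median difference, the NT and shSCX libraries of a line were 0.552 apart on average (0.435 in S to 0.749 in 316d, 8 lines). Pairs of NT libraries were 0.780 apart on average (0.546 to 0.987, 28 pairs), so the ranges overlapped.

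The division by stage took up 14.4% of the variance of log2 CPM summed over genes, and a median of 6.88% per gene. Any division of the libraries into 2 equal groups takes up some variance by chance. That share was not computed, so 14.4% alone is no sign of an effect of stage. Component 1 held 37.5% of the variance and divided the lines in another way. TB180412 (56.9), TB130911 (40.9) and 271d (37.7) stood at one end, and 316d (-19.5), 319d (-26.4), S (-26.8), TB171012 (-27.7) and 320d (-35.0) at the other. Each end held both stages, and the fetal and adult means did not differ past the threshold (exact permutation p = 0.400, adjusted 0.800 over 4 components). Component 2, with 18.98%, put TB171012 (-37.8) and 319d (-34.2) together against S (40.7) and 320d (21.0), again 1 adult and 1 fetal line at each end (exact permutation p = 0.743, adjusted 0.971). Of the mixed pairs named above as nearest, TB171012 with 319d and S with 320d each shared an end on both leading components. TB130911 and 271d shared an end of component 1, but scored 3.35 and -13.7 on component 2. Distances and components come from the same log2 CPM, so neither is support for the other.

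Component 3, with 13.7% of the variance, came closest to the stages. Among fetal lines 320d scored 31.0, 271d 21.4, 316d 12.1 and 319d 5.06. Adult scores were 7.87 in TB130911, -21.2 in TB180412, -26.9 in TB171012 and -29.3 in S. The groups overlapped through 319d and TB130911, and the difference of 34.8 missed the threshold (exact permutation p = 0.0571, adjusted 0.229). With the 2000 most variable genes the difference was 30.3 (exact permutation p = 0.029). With the 500 most variable it was 11.7 on component 3 (exact permutation p = 0.343) and -24.6 on component 2 (exact permutation p = 0.0571). With a library left out it ran from 12.4 without TB171012 (exact permutation p = 0.571) to 42.4 without TB130911 (exact permutation p = 0.0571). A component of the same number need not be the same axis in each of these refits. Component 4 (9.76% of the variance) showed next to no difference between stage means (exact permutation p = 0.971, adjusted 0.971).

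**Figure D2:**
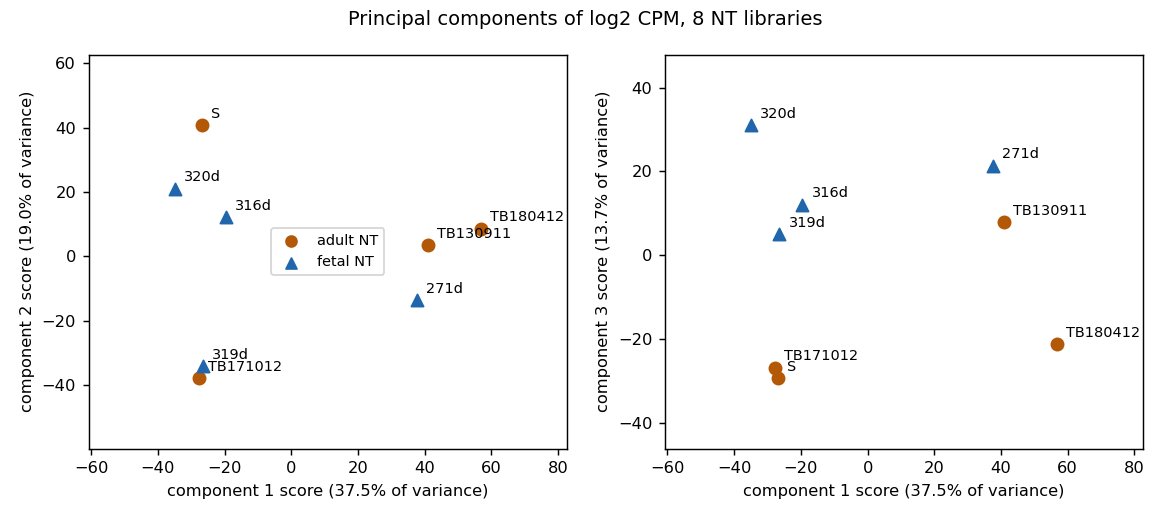
Scores of the 8 NT libraries on components 1 and 2 (left) and 1 and 3 (right) of log2 CPM, with adult lines as circles and fetal lines as triangles. On component 1 fetal 271d sits with adult TB130911 and TB180412, and on component 3 fetal 319d and adult TB130911 keep the stages from separating.

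Against this spread between lines, 1 of 12384 genes passed an adjusted p of 0.05 in the edgeR quasi-likelihood test. That is 0.00807% of the genes tested, and the gene was higher in adult lines. Without adjustment, 184 genes were higher in fetal lines at p under 0.05 (1.49%) and 164 in adult lines (1.32%). Together these are 348 genes, fewer than the 619 that 5% of the genes tested comes to. The 4 libraries of one stage all lay above the 4 of the other for 95 genes higher in fetal (0.767%) and 80 higher in adult lines (0.646%). Adding a fitted difference of at least 2-fold left 27 genes higher in fetal (0.218%) and 28 higher in adult lines (0.226%). The 2 directions were of similar size in each of these counts. Genes without overlap were 1.41% of those tested in all. Were stage without effect, 4 against 4 lines would separate fully, in one direction or the other, with a probability of 0.029. The share seen was below that, so a lack of overlap alone is no sign of a difference between stages.

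ENSECAG00000024388 was the gene that passed, and it was close to absent from fetal lines. It had 59 counts in TB171012, 66 in TB180412, 64 in TB130911 and 65 in S. Fetal 271d had 1 count, and 316d, 319d and 320d had 0. Adult lines were thus nearly alike, and no fetal library came near them. Over the 4 libraries of each stage, 254 adult counts stood against 1 fetal count, an adult to fetal ratio of 217 after scaling (95% exact interval 38.5 to 8587, for counting error only; edgeR adjusted p = 0.0121). The call did not survive the loss of any one of 3 adult lines (S, TB130911 and TB180412) or of 3 fetal lines (320d, 316d and 271d), where edgeR gave adjusted p from 0.0550 to 0.113. It held without TB171012 or 319d (0.0260 and 0.0457). Leaving out 271d gave 0.113 although it removed the only fetal count. With every fetal count then at 0, edgeR allotted the gene 6.57 degrees of freedom, against a median of 8.57 over genes. Leaving out 320d or 316d gave edgeR adjusted p of 0.101 and 0.0965 at 8.27 and 8.54 degrees of freedom. The cause of the weaker call was not tested.

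ENSECAG00000018067 had the second smallest p of the adult-high genes that met the naming rule, and its adult lines were not alike. Normalised counts were 194 in TB180412, 171 in S and 114 in TB130911, but 11.8 in TB171012. Fetal values were 0 in 271d and 316d, 2.95 in 319d and 2.43 in 320d. The stages did not overlap, yet TB171012 was nearer to the fetal lines than to the other adult lines. Summed counts were 530 in adult and 5 in fetal libraries, a ratio of 90.4 (95% exact interval 38.5 to 279, for counting error only). The difference did not pass in the main test (edgeR adjusted p = 0.520), and of the edgeR fits only the one without TB171012 called it (edgeR adjusted p = 0.0291). DESeq2 called it too (DESeq2 adjusted p = 5.74e-07). With a filter of 1 CPM in 4 libraries the gene was not tested.

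ENSECAG00000033730 led the genes that were higher in fetal lines. Fetal normalised counts ran from 593 in 316d through 824 in 271d and 889 in 319d to 1201 in 320d. Adult values were 190 in TB171012, 100.5 in TB180412, 83.2 in TB130911 and 169 in S. The lowest fetal library was thus well above the highest adult one, and here 271d stood among the other fetal lines. The log2 fold change, fetal minus adult, was 2.69 (SE 0.33, 95% interval 1.96 to 3.43), or 6.46-fold, and missed the threshold (edgeR adjusted p = 0.0824). Scaling by total counts (edgeR adjusted p = 0.0396) or dropping the filter on low counts (0.0451) brought it past.

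ENSECAG00000023734 was the other fetal-high gene named, at a lower level. Its normalised counts were lowest in 271d (66.2), followed by 319d (86.6), 316d (94.1) and 320d (126). Adult lines had 3.63 in TB171012, 11.8 in TB180412, 21.9 in TB130911 and 8.71 in S. All fetal libraries lay above all adult ones, and on the log scale the adult lines were further apart among themselves than the fetal lines. The log2 fold change was 3.00 (SE 0.50, 95% interval 1.88 to 4.12; edgeR adjusted p = 0.520).

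**Figure D3:**
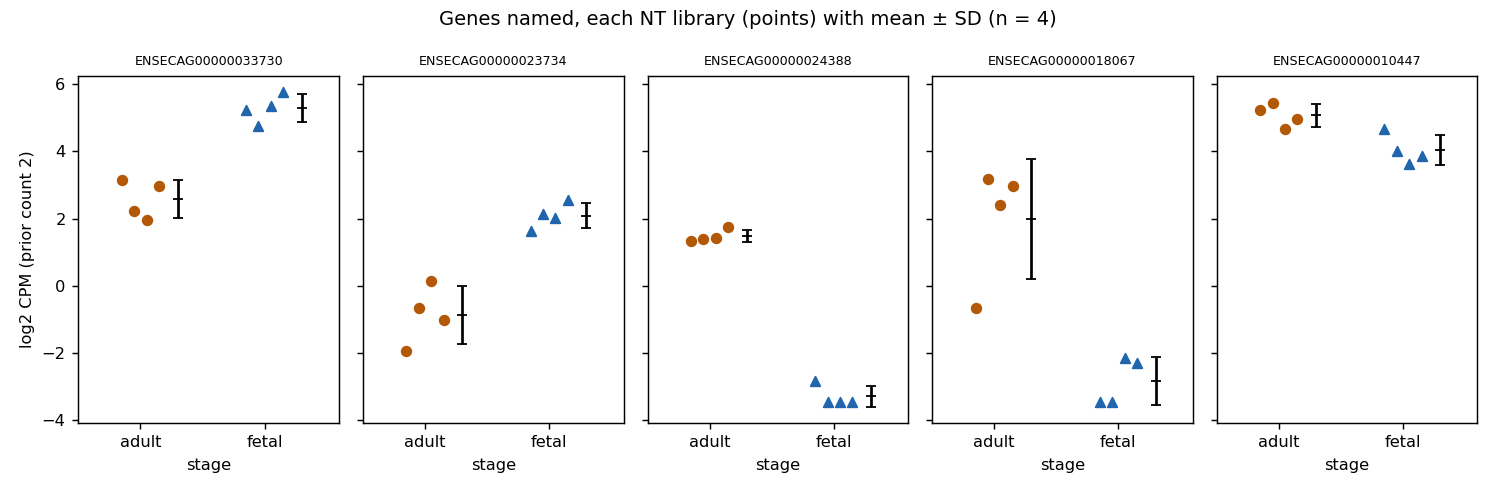
Log2 CPM of the genes named, with 1 point per NT library (adult circles, fetal triangles) and the mean ± SD (n = 4) beside each group. ENSECAG00000033730 and ENSECAG00000023734 lie higher in every fetal library, ENSECAG00000024388 and ENSECAG00000018067 lie higher in every adult library, and ENSECAG00000010447 overlaps through 271d.

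The same contrast in the shSCX libraries of these lines also called 1 of 12482 genes (0.00801%), again ENSECAG00000024388 (log2 fold change -5.06, SE 0.36, edgeR adjusted p = 0.00183). There ENSECAG00000033730 differed by 2.46 (SE 0.59, edgeR adjusted p = 0.732) and ENSECAG00000023734 by 3.21 (SE 0.69, edgeR adjusted p = 0.538), both without overlap. ENSECAG00000018067 was not tested there, since it did not pass the filter on low counts. Its normalised counts were again low in 1 adult line, at 9.92 in TB171012 against 92.2 in TB130911, 305 in S and 555 in TB180412, and fetal values ran from 4.06 in 319d to 8.83 in 271d.

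The genes that differed at least 2-fold without overlap were spread over a wide range of levels. Means in the higher stage ran from 16.1 to 2167 normalised counts for the 27 fetal-high genes and from 20.3 to 20857 for the 28 adult-high genes. Of these, 20 and 18 reached 50 normalised counts. In the lower stage, 7 of the fetal-high and 9 of the adult-high genes had a mean under 10. Median sizes were 1.61 and 1.58 on the log2 scale. In the shSCX libraries, which are second cultures of the same lines and not other animals, 16 of the 27 and 13 of the 28 again did not overlap in the same direction, against 1.46% and 0.872% of all genes tested.

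Genes switched fully on at one stage were few. Among 21689 identifiers, 3 had 10 or more counts in every adult NT library and 3 or fewer in every fetal one. No identifier had the reverse pattern. With 50 or more counts asked of the adult libraries 1 gene met the rule, and with 0 counts asked of the fetal libraries none did.

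Abundant genes were measured tightly enough to bound the difference between stages. For 8156 of the 12384 genes (65.9%), the 95% interval of the fold change lay within 2-fold in either direction. This held for 92 of the 100 most abundant genes, 806 of the next 900 and 3393 of the 4000 after those, but for 3865 of the 7384 genes beyond rank 5000 (52.3%). The median standard error was 0.26 on the log2 scale over all genes, and 0.32 beyond rank 5000. Fitted differences of at least 2-fold were seen for 1 of the 100 most abundant genes, 6 of the next 900 (0.667%), 31 of the next 4000 (0.775%) and 339 of the rest (4.59%). These intervals are per gene, with no adjustment for the number of genes, and the remaining genes may differ by more than 2-fold without the test showing it.

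**Figure D4:**
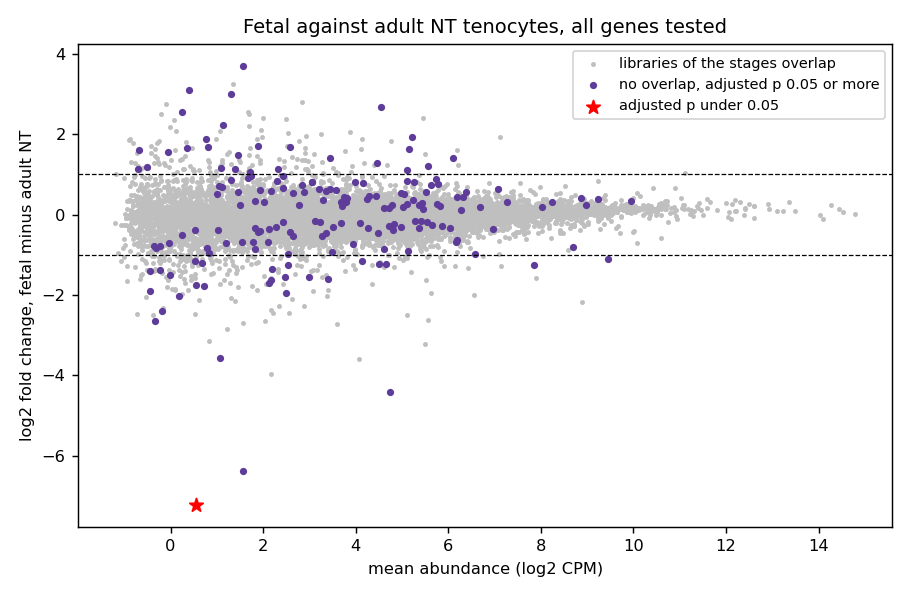
Log2 fold change, fetal minus adult NT, against mean abundance in log2 CPM for all genes tested, with dashed lines at 2-fold. Purple points are genes whose fetal and adult libraries do not overlap, the star is ENSECAG00000024388, and 2-fold differences are most frequent among the genes beyond rank 5000 (4.59%).

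Median fitted changes leaned slightly towards the fetal lines among abundant genes and towards the adult lines among weak ones. Genes are not replicates, so no test was made of this lean. The share of counts in the 100 most abundant genes did not differ past the threshold (exact permutation p = 0.286). The median log2 fold change was 0.14 over the 100 most abundant genes, 0.09 over the next 900, 0.03 over the next 4000 and -0.05 beyond rank 5000, against 0.00 over all genes. None of the 100 most abundant genes reached an unadjusted p of 0.05 in the edgeR test and none was without overlap. Scaling by total counts shifted the median of all genes to -0.07.

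Lines of one stage varied among themselves in both stages, and the fetal spread was lowest without 271d. The median SD of log2 CPM per gene was 0.377 between adult lines and 0.336 between fetal lines, and 59.2% of genes had the larger SD in adult lines. Without 271d the fetal median was 0.244, while leaving out 316d, 319d or 320d gave 0.365, 0.331 and 0.315. The adult median ran from 0.342 without TB171012 to 0.393 without TB130911. The biological coefficient of variation, which edgeR estimates as the relative spread beyond counting error, was 0.368 in adult lines alone, 0.323 in fetal lines alone and 0.278 in fetal lines without 271d.

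Leaving out 271d, the youngest fetal line, changed the unadjusted count most among the 8 libraries left out in turn. The number of genes at unadjusted p under 0.05 rose from 348 to 875 (5% of the genes tested there is 626), of which 645 were higher in adult and 230 in fetal lines, so the near balance of directions was lost too. No gene passed the adjusted threshold between the 3 late fetal lines and the 4 adult lines (0 of 12524, 0%; lowest edgeR adjusted p = 0.113). Under the naming rule this comparison brought up 1 further gene, ENSECAG00000010447. Its normalised counts were 820 in TB171012, 954 in TB180412, 555 in TB130911 and 678 in S, while 316d had 348, 320d had 316 and 319d had 269. In 271d it stood at 556, level with the lowest adult line. Its log2 fold change was -1.27 without 271d (SE 0.23, edgeR adjusted p = 0.672) and -1.01 with it (SE 0.26, edgeR adjusted p = 0.998). In the shSCX libraries the stages did not overlap for this gene, with 259 normalised counts in 271d against 320 in the lowest adult line, TB130911 (log2 fold change -1.69, SE 0.55, edgeR adjusted p = 0.877).

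TB171012 was the adult counterpart. Without it, 704 of 12540 genes had an unadjusted p under 0.05 in the edgeR test, 377 higher in fetal and 327 in adult lines. This is near the 627 that 5% of the genes tested there comes to. The adjusted threshold was passed by 3 of the 12540 genes, all higher in adult lines. With any other library left out, the unadjusted count was between 245 and 377, below 5% of the genes tested in each case.

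More genes separated the stages without TB171012 or 271d than without any other library. The 3 remaining adult lines and the 4 fetal lines did not overlap for 743 of the 12384 genes without TB171012, 423 higher in fetal and 320 in adult lines. Without 271d it was 706 genes, 336 higher in fetal and 370 in adult lines. With another library left out the number was between 274 (TB180412) and 372 (S), against 175 with all 8. The 175 genes (1.41% of those tested) are part of each of these sets by construction, and the 8 sets share libraries, so the counts are descriptions. By chance alone, 3 against 4 libraries separate for more genes than 4 against 4 do. The number expected by chance was not computed, so no set is read as genes of a stage.

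**Figure D5:**
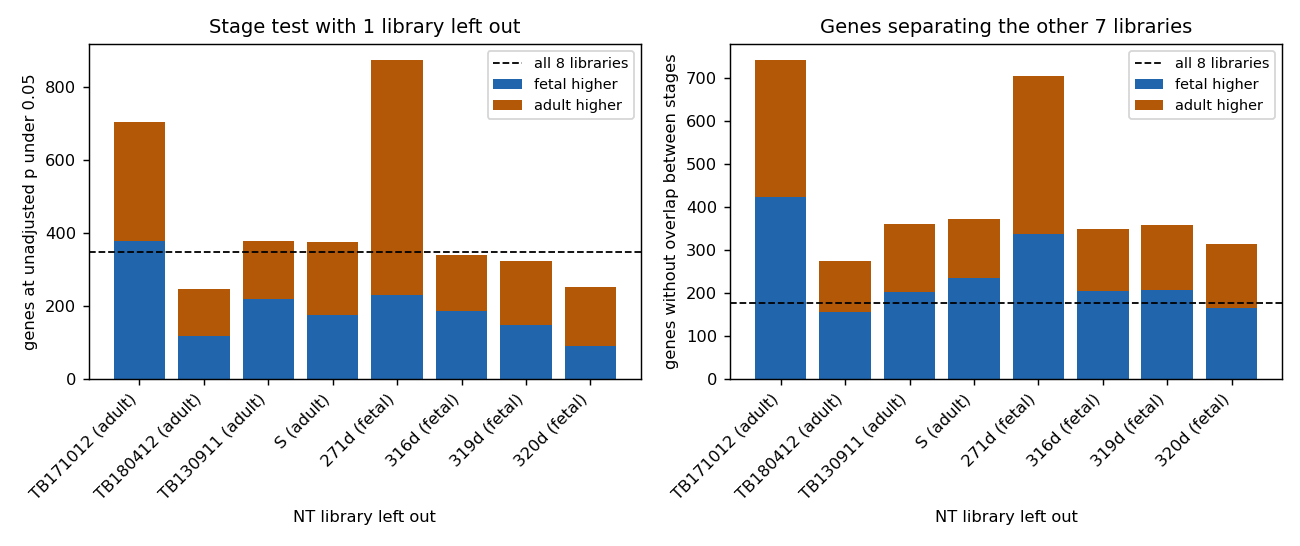
Left, genes at unadjusted p under 0.05 in the stage test with each NT library left out, divided by direction, with the count of all 8 libraries (348) as a dashed line. Right, genes whose fetal and adult libraries did not overlap among the other 7, by direction, with the count of all 8 (175) as a dashed line. By chance alone, 7 libraries separate for more genes than 8 do. Both panels are highest without TB171012 and 271d.

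The choice of test mattered for how many genes passed. The DESeq2 Wald test called 22 of 12362 genes (0.178%), 10 higher in fetal and 12 in adult lines, and limma voom called 1. Of the 22, 21 did not overlap between the stages, against 1.41% of all genes in the edgeR test. An unadjusted edgeR p under 0.05 was found for 22, against 2.81% of all genes, and 21 averaged 50 normalised counts or more in the higher stage. The 22 were picked from the same libraries, so these counts describe them and are no further evidence. Their fitted sizes ran from 0.657 to 7.504 on the log2 scale. ENSECAG00000033730 (DESeq2 adjusted p = 3.67e-11), ENSECAG00000023734 (4.39e-06) and ENSECAG00000018067 (5.74e-07) were among them. With limma voom and weights for each library, 1800 genes had an unadjusted p under 0.05, 1199 higher in adult and 601 in fetal lines. Without weights limma voom gave 321, and 5% of the genes tested is 619 in both. With weights, 1 gene passed after adjustment. The weights were estimated from these same libraries. The lowest weights went to TB171012 (0.464), 271d (0.571) and S (0.575), and the highest to 316d (2.64).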

How the data were processed

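The authors deposited estimated counts per gene, unscaled, in 1 adult and 1 fetal table over the same 21689 horse Ensembl identifiers. The submitters' processing notes list FastQC, Salmon and R 3.5.2 without their roles. The sources used here do not give the transcript set, the build or the step to genes. Both tables were joined by identifier, and values (94.6% to 95.8% whole within 0.01 in NT libraries) were rounded. Stage came from the cell type label, hairpin and line from the titles. The adult columns with the bare prefix TB were assigned to TB171012, the remaining adult title.

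The stage test was edgeR 4.0.16 in R 4.3.3 (TMM scaling, quasi-likelihood F test, filterByExpr, Benjamini-Hochberg adjustment over all genes tested), unpaired, after a test on simulated data. The SE is the log2 fold change divided by the square root of F. Normalised counts are TMM-scaled to the geometric mean library size, and log2 CPM used a prior count of 2. Alternatives used DESeq2 1.42.0, limma 3.58.1, other scalings and filters, robust dispersion, passage as covariate, all 16 libraries, summed lines and each library left out. The fit of all 16 libraries held no term for line, so it treated the NT and shSCX libraries of a line as independent. Exact permutation tests, two-sided, used scipy 1.17.1.

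No 2 NT libraries matched within sampling noise (lowest chi-square per degree of freedom 37.6). P-values set the difference between stages against the spread between these lines. Named genes were, per direction, the 2 called genes with the largest change, no overlap and 50 or more normalised counts on average in the higher stage, then by smallest unadjusted p. The same rule was used without 271d. The 25 gene and marker lists were not analysed here, since 0 identifiers matched the gene table (assembly TB-T2T). Members and lists were chosen with earlier results of these data known. The distances between libraries and the counts of genes separating the other 7 were added after seeing the data.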

Additional observations from a re-analysis of the deposited data

Results flagged for a closer look

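Single libraries standing apart from their stage were looked for in 24 sets of 4 values: the log2 CPM of each named gene, the library measures and the component scores, in each stage. Chance flags about 1 in 20 such sets. In 2 of them 1 library stood apart from the other 3, both for ENSECAG00000024388. Line S was highest among adult lines at 1.73 log2 CPM. Its 65 counts became 70.7 after TMM scaling, while the 66 counts of TB180412 became 55.7. Fetal 271d was highest among fetal lines at -2.83 log2 CPM, which is its single count against 0 in the others.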

How the results depend on the processing

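The number of genes past the adjusted threshold was 1 in the main edgeR test, 22 with DESeq2, 2 with scaling by total counts and 2 with no filter on low counts. It was 1 with limma voom with or without library weights, RLE or upper-quartile scaling, a filter of 1 CPM in 4 libraries, robust dispersion, passage as covariate, all 16 libraries in one fit and the NT and shSCX counts of a line summed, and 0 to 3 with a library left out. At unadjusted p under 0.05 there were 348 genes, against 1800 with limma voom and library weights, 548 with no filter and 245 to 875 with a library left out. In the first 2 of these 5% of the genes tested is 619, and with no filter it is 838. Genes with an interval within 2-fold numbered 7231 to 8165 with a library left out. ENSECAG00000033730, ENSECAG00000023734, ENSECAG00000024388, ENSECAG00000018067 and ENSECAG00000010447 kept their direction in every setting that tested them. The difference between stages on component 3 was 30.3 with the 2000 most variable genes. On component 4 it turned to 2.90 with the 500 most variable genes, and with a library left out it ran from -12.6 to 8.35, and on component 2 from -37.4 to 23.7. Neither was past the threshold in any of these, and the cause was not tested. With a line left out, the median SD between lines ran from 0.342 to 0.393 in adult and from 0.244 to 0.365 in fetal lines. Genes present in adult and near 0 in fetal lines numbered 1 with a minimum of 50 counts and 0 with no fetal count allowed. No paired analysis was possible because the fetal and adult libraries come from different lines and share no replicate. With 4 lines a stage, the spread between lines, and for genes beyond rank 5000 also their low counts, limits what can be detected.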
